A study of Rattus norvegicus with 3 samples.

Results

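The genes described here remodel the extracellular matrix: the matrix metalloproteinases (Mmp), the ADAMTS proteases and ADAMTS-like proteins, the tissue inhibitors of metalloproteinases (Timp) and the lysyl oxidases (Lox). They were chosen by name, with earlier results of these data known, as every gene with a probe set of a single symbol that begins with Adamts, that is Mmp or Timp with a number, or that is Lox or one of Loxl1 to Loxl4. The rule found 44 genes on 45 probe sets, among 14506 genes with a single symbol. There were 21 Mmp, 11 Adamts, 3 Adamtsl, 4 Timp and 5 Lox genes.

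RNA came from the tibialis anterior, a muscle of the lower leg, of male Wistar rats aged 11 weeks fed for 3 weeks on a high fat diet in which fat supplied 45% of the energy. After 2 weeks of that feeding, 150 µg of plasmid was driven into the muscle by electric pulses, and the muscle was taken 8 days later. The first group received pcDNA3.1-CMV-Plin5, which encodes the lipid droplet protein Plin5 (OXPAT). The second received pENTR-CMV-Plin2, which encodes the droplet protein Plin2 (ADRP). The empty vector group received pcDNA3.1 with no insert, and all 3 groups shared the diet, the injection and the pulses. The contralateral legs were not analysed here, and the labels do not say whether the arrays were processed together. Each group was 1 array of RNA pooled from 6 rats, so there was no spread between replicates and none of the differences below was tested; the number of arrays limits their precision. The Plin2 plasmid also had another backbone than the other plasmids, so insert and backbone cannot be told apart in any comparison with it.

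Matrix metalloproteinases are zinc enzymes that are made as inactive precursors and cut collagens, gelatin, elastin and proteoglycans once activated. ADAMTS proteases cut large proteoglycans such as versican and aggrecan or trim the ends of procollagen, and ADAMTS-like proteins share their outer domains but have no protease domain. Timps block the active site of the metalloproteinases, and lysyl oxidases cross-link collagen and elastin into stable fibres. In skeletal muscle these genes are active during repair, when fibroblasts, macrophages and muscle precursor cells rebuild the matrix around the fibres.

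All values are log2 expression levels, and each difference is a log2 level on one array minus that on another. Levels of different probe sets depend on their probes and were not set against each other. A gene was called higher or lower when it differed by at least 1.5-fold and its mean over the arrays reached 5.34, the 25th percentile of all genes, which is named the dim level here. This filter left 33 members and 10879 genes in all. The introduced genes had their highest level on their own arrays: the Plin5 probe set read 8.30 on the Plin5, 6.79 on the Plin2 and 7.52 on the empty vector array, and the Plin2 probe set read 10.08, 10.71 and 9.99 on the same arrays. The 8 muscle fibre markers had levels of 11.68 to 14.04 over the 3 arrays, all far above the dim level.

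Of the Mmp genes, 9 form a row of neighbours on the genome, and 1 of them, Mmp12, was called. In the RefSeq annotation (assembly GRCr8) they follow each other on rat chromosome 8 in the order Mmp13, Mmp12, Mmp3, Mmp1, Mmp10, Mmp8, Mmp27, Mmp20 and Mmp7, with 1 other protein-coding gene inside the row, between Mmp12 and Mmp3. They encode collagenases (Mmp1, Mmp8, Mmp13), stromelysins (Mmp3, Mmp10), the macrophage elastase Mmp12, the matrilysin Mmp7, the tooth enamel enzyme Mmp20 and Mmp27. The stretches from -100 to -21 before each start site, on the plus strand, are shown because most of them share the same pair of motifs; capitals mark each TGANTCA, the letters of an AP-1 site read on both strands, and each TATAAA, read on the strand shown.
Mmp13, chr8:12782729-12782808: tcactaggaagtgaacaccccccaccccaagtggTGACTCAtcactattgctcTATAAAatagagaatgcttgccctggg
Mmp12, chr8:12866552-12866631: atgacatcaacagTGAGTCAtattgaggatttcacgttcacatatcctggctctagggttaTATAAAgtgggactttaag
Mmp3, chr8:12925181-12925260: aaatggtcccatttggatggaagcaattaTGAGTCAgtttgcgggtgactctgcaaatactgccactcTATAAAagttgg
Mmp1, chr8:12943353-12943432: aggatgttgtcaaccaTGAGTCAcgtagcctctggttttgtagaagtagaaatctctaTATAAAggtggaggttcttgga
Mmp10, chr8:12974607-12974686: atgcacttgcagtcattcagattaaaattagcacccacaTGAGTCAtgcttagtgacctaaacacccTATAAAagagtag
Mmp8, chr8:13008790-13008869: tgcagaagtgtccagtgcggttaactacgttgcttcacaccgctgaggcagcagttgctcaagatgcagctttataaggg
Mmp27, chr8:13030652-13030731: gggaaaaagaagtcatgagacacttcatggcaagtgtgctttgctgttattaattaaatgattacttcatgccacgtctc
Mmp20, chr8:13074179-13074258: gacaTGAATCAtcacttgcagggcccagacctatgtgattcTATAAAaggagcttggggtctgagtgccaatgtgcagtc
Mmp7, chr8:13132943-13133022: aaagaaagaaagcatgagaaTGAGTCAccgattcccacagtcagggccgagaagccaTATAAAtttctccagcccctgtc

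Of these 9 windows, 7 held both motifs, and the windows of Mmp8 and Mmp27 held neither. Among 33469 rat promoters in the same table, 1.95% held TGANTCA in this window, 3.35% held TATAAA and 0.114% held both. TATAAA and the window were chosen after these promoters were read, so the shares describe the row and test nothing. The first base of TGANTCA lay between -96 (Mmp20) and -61 (Mmp10), and at -87 in Mmp12. A match of letters is a description of the sequence and not a bound site.

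Mmp12, the elastase that macrophages secrete, was above the dim level on 1 array. Its level was 5.14 on the Plin5, 6.43 on the Plin2 and 4.79 on the empty vector array. The measured difference from the empty vector was 1.64 on the Plin2 and 0.35 on the Plin5 array. The Plin5 and empty vector values lay under the dim level, so the sizes of both differences are uncertain; the Plin2 value exceeded the dim level by 1.09. Mmp12 was the 1 member whose mean passed the filter through a single array, whereas the other 32 were at or above the dim level on all 3.

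The other 8 genes of the row were all under the dim level on every array. Mmp13 (3.43), Mmp3 (4.40), Mmp1 (3.30), Mmp10 (4.12), Mmp8 (4.92) and Mmp27 (5.34 after rounding) had exactly the same value on all 3 arrays. Mmp7 read 5.06 on the Plin5, 5.12 on the Plin2 and 5.06 on the empty vector array, and Mmp20 read 4.40, 4.16 and 4.18. At such levels neither expression nor a difference was judged, since the dim level is a percentile and no detection call was used. Exactly equal values arise where the authors' summary of a probe set gives every array the same number: 36.1% of all 14506 genes and 14 of the 44 members (31.8%) were equal on the 3 arrays.

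**Figure D1:**
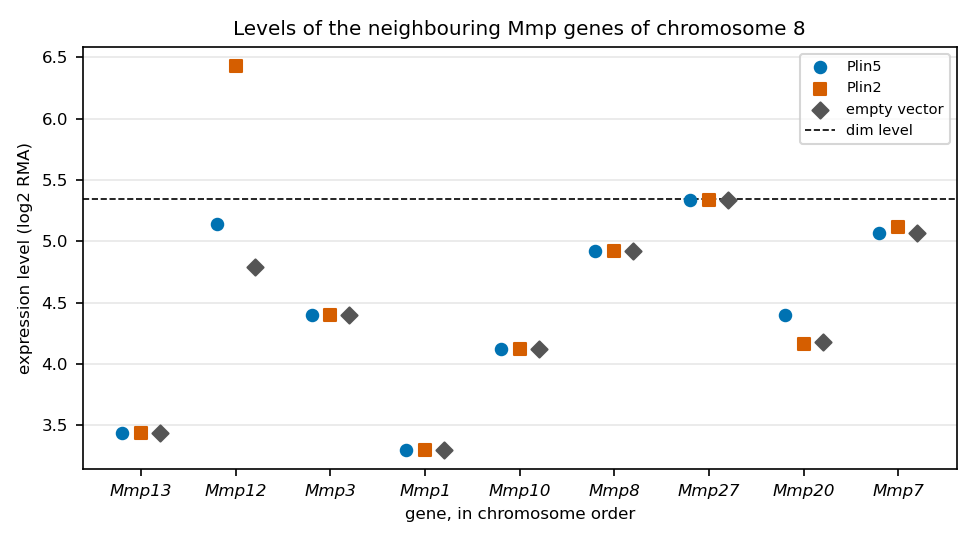
Levels (log2, y axis) of the 9 neighbouring Mmp genes of chromosome 8 in gene order (x axis) on the Plin5, Plin2 and empty vector arrays, 1 point per array. Mmp12 on the Plin2 array (6.43) is the 1 point above the dim level (dashed line, 5.34).

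The comparison of the Plin2 with the empty vector muscle set one droplet protein against the control plasmid, and in it proteases, an inhibitor and cross-linking enzymes were higher on the Plin2 array. Of the 33 members past the filter, 10 were higher on the Plin2 array by at least 1.5-fold (30.3%), against 8.84% of all genes, and 2 were lower (6.06%), against 5.8% of all genes. Median-centring, which subtracts each array's median gene, left 8 higher and 2 lower. Over all genes 7.12% were then higher and 7.53% lower. Without Mmp12, which passed the filter through its Plin2 value, 9 of 32 were higher (28.1%). The higher ones were the proteases Mmp9, Mmp12, Mmp14, Mmp19, Adamts4, Adamts14 and Adamts15, the inhibitor Timp1 and the cross-linking enzymes Lox and Loxl1. The lower ones were Adamtsl4 and Adamtsl5, which have no protease activity. The median difference of the 33 members was 0.10, and that of all genes was 0.00. Macrophage markers were also higher on the Plin2 array (11 of 12, median 1.09), as were all 7 markers of T and natural killer cells (median 1.27; 6 of 7 after median-centring) and 4 of 6 markers of satellite cells and regenerating fibres (median 0.89); their part in these differences was not tested.

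The comparison of the Plin5 with the empty vector muscle gave no member past 1.5-fold in either direction, where 0.221% of all genes were higher and 1.42% lower. With so few genes called in all, 0 of 33 is near the background. The small differences of the 33 members lay mostly below 0: 18 were lower on the Plin5 array, 3 were higher and 12 were exactly equal, and over all genes 3699 were lower, 2812 higher and 4368 equal. The median was -0.02 for the members and 0.00 for all genes. After median-centring it was 0.02 for the members and 0.04 for all genes. Its sign thus depends on the centring. Centring shifts every gene by the same amount, so the members' place slightly below all genes could not change with it. Among members above the dim level on both arrays the largest difference was that of Adamtsl5, at 0.33. On the same array 6 of 12 macrophage markers (median -0.58, 5 of 12 after median-centring) and 4 of 6 tendon markers (median -1.10) were lower by 1.5-fold, and their part was not tested.

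The comparisons of Plin5 and of Plin2 with the empty vector share that 1 array, so their values are given side by side for each gene. Between the Plin5 and the Plin2 array, 2 members were higher on the Plin5 array, against 7.19% of all genes, and 12 were lower, against 11.3% of all genes (36.4% of the members). Without Mmp12, which passed the filter through its Plin2 value, 11 of 32 were lower (34.4%). After median-centring 8 were lower: Mmp2 (-0.56), Mmp23 (-0.52), Mmp9 (-0.49) and Adamts14 (-0.48) then fell short of 1.5-fold. The 2 higher ones were Adamtsl4 (0.92) and Adamtsl5 (0.97). The 12 lower ones were the 10 genes that were higher on the Plin2 array against the empty vector, and Mmp2 (-0.69) and Mmp23 (-0.64), which had passed 1.5-fold against neither. The median of the members was -0.25 and that of all genes 0.00.

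**Figure D2:**
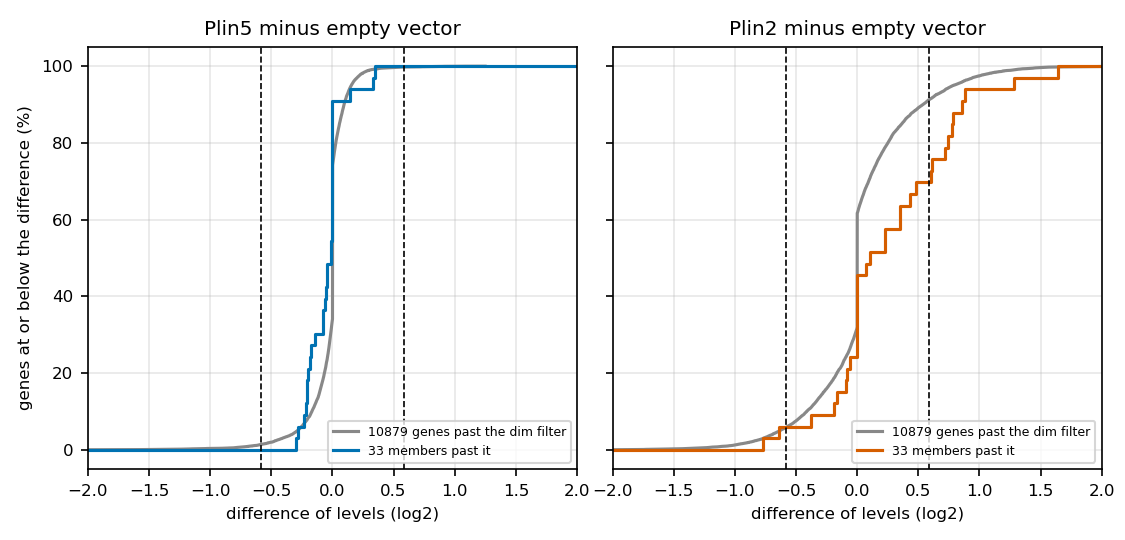
Cumulative share (y axis, percent) of genes by their difference from the empty vector (x axis, log2), for all 10879 genes past the dim filter (grey) and the 33 members past it (coloured), Plin5 on the left and Plin2 on the right. The x axis stops at -2 and 2, beyond which lie some of all genes but no member. Dashed lines mark 1.5-fold: no member lies beyond them for Plin5, and 10 lie above and 2 below for Plin2.

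Of the gelatinases, which cut denatured collagen and basement membrane, Mmp9 was called higher on the Plin2 array and Mmp2 was not. Mmp2 read 11.11 on the Plin5, 11.80 on the Plin2 and 11.32 on the empty vector array. Its differences from the empty vector were -0.21 for Plin5 and 0.48 (1.39-fold) for Plin2, short of the call. Mmp9 read 5.67, 6.28 and 5.67 on those arrays, so Plin5 and empty vector were exactly equal and Plin2 was higher by 0.61 (1.53-fold). This call did not survive median-centring (0.53).

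The membrane-bound Mmp14 activates the Mmp2 precursor at the cell surface in a complex with Timp2. It read 9.41 on the Plin5, 10.21 on the Plin2 and 9.49 on the empty vector array, which was 0.72 higher (1.65-fold) for Plin2 and -0.08 for Plin5. The other membrane-bound members did not share this difference. Mmp15 read 10.25, 10.14 and 10.30 on those arrays, and Mmp17 (6.04) and Mmp24 (5.82) were exactly equal on all 3. Mmp16 (5.28) was also equal on all 3 and under the dim level.

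Of the remaining matrix metalloproteinases, Mmp19 was the one called. It read 6.85 on the Plin5, 7.68 on the Plin2 and 6.90 on the empty vector array, higher by 0.78 (1.72-fold) for Plin2 and at -0.05 for Plin5. Mmp23, which is tethered to the membrane by its own signal anchor, read 6.91, 7.55 and 7.11, with differences of -0.20 for Plin5 and 0.44 for Plin2. Neither reached 1.5-fold, but the Plin5 and Plin2 arrays differed by the -0.64 given above, which fell under the threshold after median-centring (-0.52). Mmp11 stood at 6.57, 6.80 and 6.57 on the Plin5, Plin2 and empty vector arrays. Mmp28, also called epilysin, was exactly equal on all 3 (6.98). Mmp21 (4.56) was equal on all 3 and dim.

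Over the whole Mmp family, 11 of 21 genes passed the filter. Of these 11, 4 were higher and none lower by 1.5-fold on the Plin2 array against the empty vector (median 0.44), where 8.84% of all genes were higher and 5.8% lower. Without Mmp12, 3 of 10 were higher (median 0.33). Median-centring left 3 of 11, without Mmp9, against 7.12% of all genes. Of these 3, 1 was Mmp12, which passed the filter through its Plin2 value. None was called on the Plin5 array (median 0.00). The 4 called genes belong to different groups by substrate and anchoring: a gelatinase, the elastase, a membrane-bound enzyme and a secreted one.

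**Figure D3:**
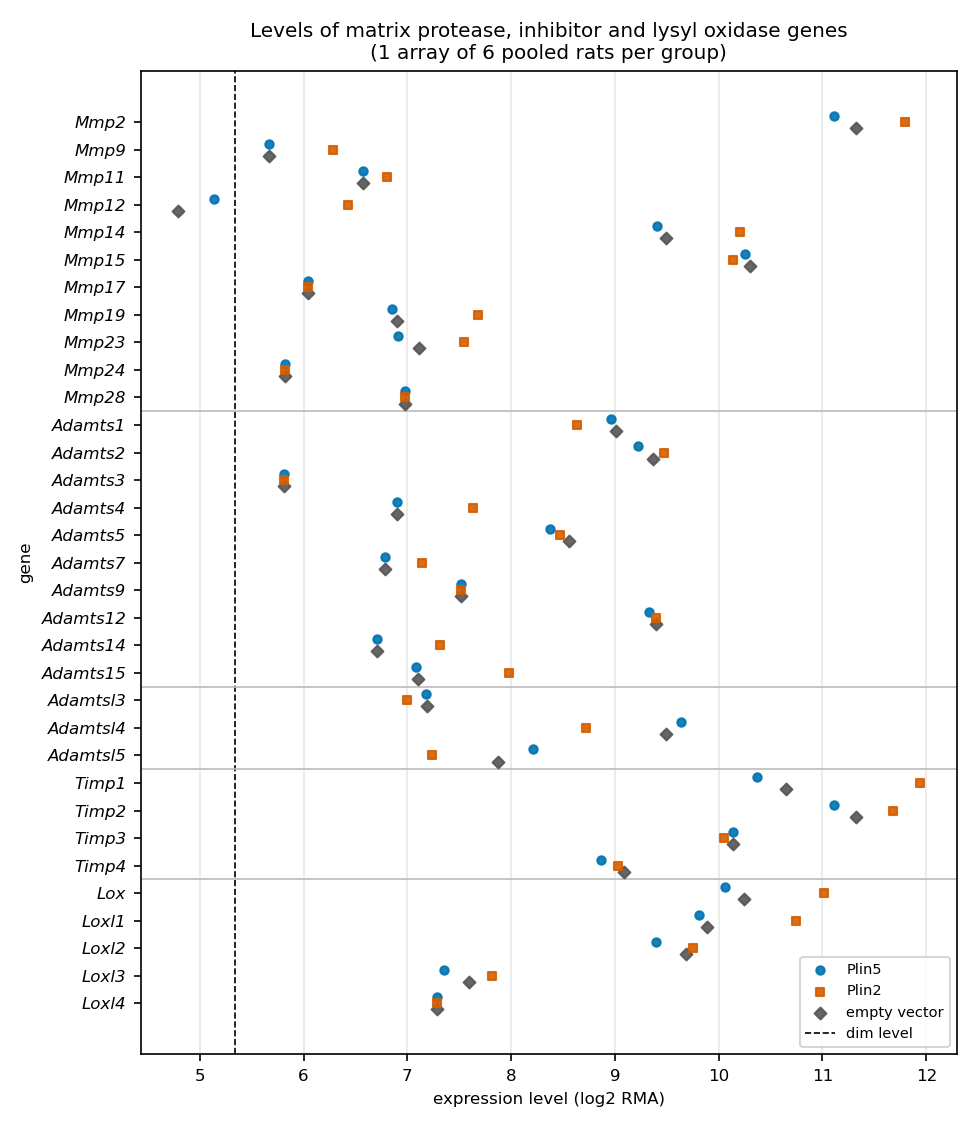
Levels (log2, x axis) of the 33 members past the dim filter (rows, by family) on the Plin5, Plin2 and empty vector arrays, 1 point per array. In the called genes the Plin2 point stands apart from the other 2 points, to the right for Timp1 (11.94) and to the left for Adamtsl4 (8.72); the dashed line is the dim level.

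Of the 5 ADAMTS proteases that cut proteoglycans, 2 were higher on the Plin2 array and none lower, where 8.84% of all genes were higher and 5.8% lower. Adamts4, an aggrecanase that also cuts versican, read 6.90 on the Plin5, 7.64 on the Plin2 and 6.90 on the empty vector array. The Plin5 and empty vector values were exactly equal and Plin2 was higher by 0.74 (1.67-fold). Adamts15, another versican-cutting enzyme, read 7.09, 7.98 and 7.10, higher by 0.88 (1.84-fold) for Plin2 and at -0.02 for Plin5. It had the largest Plin2 difference of the ADAMTS family. Adamts1 was not called: it read 8.97 on the Plin5, 8.64 on the Plin2 and 9.01 on the empty vector array, a difference of -0.38 for Plin2 that was short of 1.5-fold.

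Adamts5 and Adamts9, from the same group, were not called. Adamts5 read 8.38 on the Plin5, 8.47 on the Plin2 and 8.56 on the empty vector array, and Adamts9 was exactly equal on all 3 (7.52). In the RefSeq annotation Adamts1 and Adamts5 are direct neighbours on chromosome 11. Both were lower than the empty vector on both other arrays, by 0.38 at most.

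The procollagen N-proteinases remove the amino-terminal propeptide so that collagen can form fibrils. Adamts14 read 6.71 on the Plin5, 7.31 on the Plin2 and 6.71 on the empty vector array, exactly equal between Plin5 and empty vector and higher by 0.60 (1.52-fold) for Plin2. It stood closest to the threshold of all called members and fell under it after median-centring (0.52) and quantile normalization (0.56). Adamts2 read 9.22, 9.47 and 9.37 on those arrays, and Adamts3 (5.81) was exactly equal on all 3.

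Of the other ADAMTS proteases, Adamts7 read 6.79 on the Plin5, 7.14 on the Plin2 and 6.79 on the empty vector array, a Plin2 difference of 0.35. Adamts12 read 9.33, 9.39 and 9.39. Both are known to cut cartilage oligomeric matrix protein (Comp), whose own gene is described with the substrates. Adamts19 was dim on every array (4.96, 4.89 and 4.96). Over the family of 11 Adamts proteases, 10 passed the filter, 3 were higher and none lower by 1.5-fold on the Plin2 array (median 0.05), where 8.84% of all genes were higher and 5.8% lower. Median-centring left 2 of 10 higher, without Adamts14, against 7.12% of all genes. It turned the median to -0.03, where that of all genes became -0.08. None was called on the Plin5 array.

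Of the 3 ADAMTS-like genes, all past the filter, 2 were lower by 1.5-fold on the Plin2 array and none higher. Over all genes 5.8% were lower and 8.84% higher there. Adamtsl4, which binds fibrillin microfibrils and is mutated in inherited lens dislocation in humans, read 9.64 on the Plin5, 8.72 on the Plin2 and 9.49 on the empty vector array. It was lower by 1.71-fold (-0.77) for Plin2 and at 0.15 for Plin5. Adamtsl5 read 8.21, 7.24 and 7.88, lower by 1.56-fold (-0.64) for Plin2 and at 0.33 for Plin5. In both genes the Plin5 value was the highest of the 3 arrays and the Plin2 value the lowest, the reverse of the order in Timp1 and Lox. Adamtsl3 read 7.18 on the Plin5, 7.00 on the Plin2 and 7.19 on the empty vector array and was not called.

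**Figure D4:**
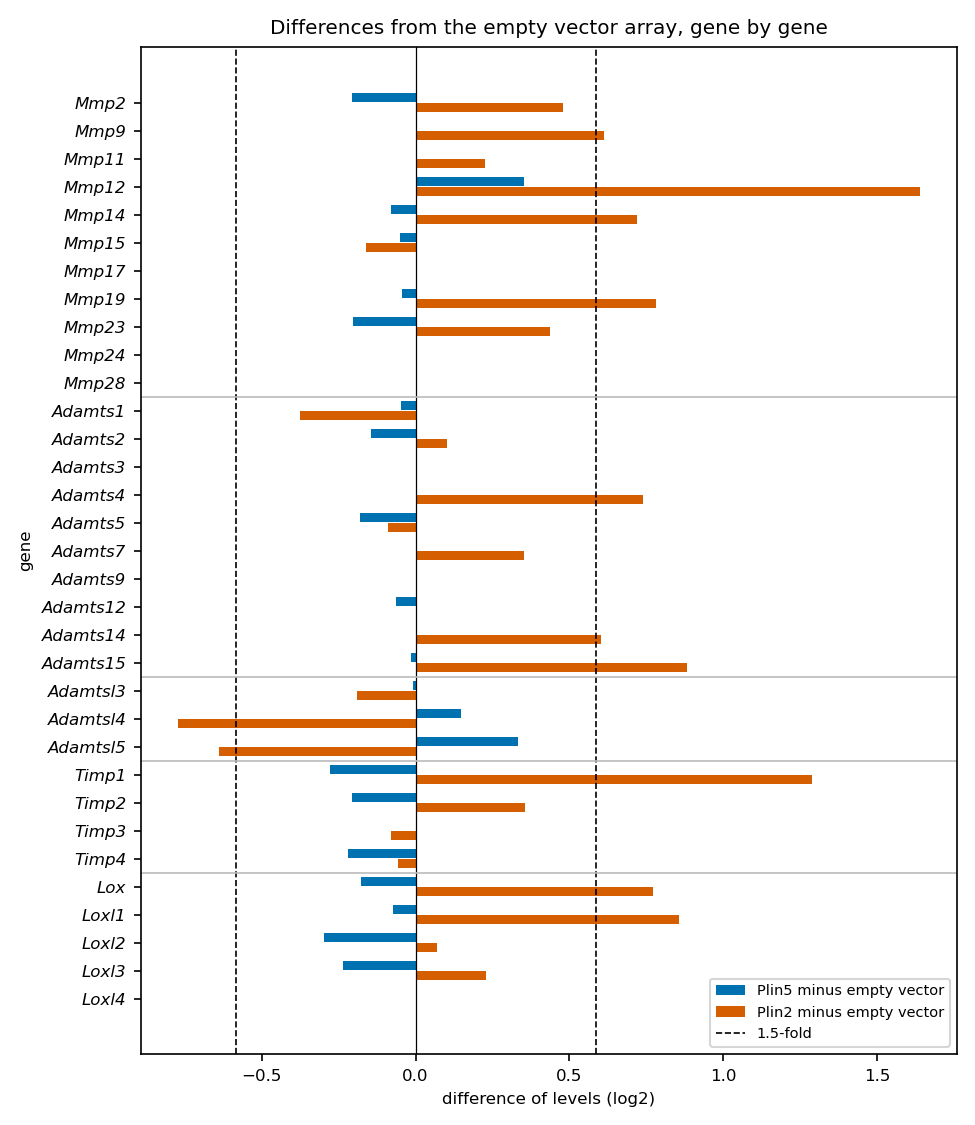
Difference from the empty vector array (x axis, log2) for each of the 33 members past the dim filter (rows, by family), Plin5 above Plin2 in each row. Dashed lines mark 1.5-fold; 10 Plin2 bars pass the right line, those of Adamtsl4 (-0.77) and Adamtsl5 (-0.64) pass the left line, and no Plin5 bar passes either.

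The 4 inhibitors differed in size and direction. Timp1, the inducible member that is known to be raised in injured and inflamed tissue, read 10.37 on the Plin5, 11.94 on the Plin2 and 10.65 on the empty vector array. It was higher by 1.29 (2.44-fold) for Plin2, the 101st highest difference of 10879 genes, and lower by 1.21-fold (-0.28) for Plin5. The gap between the Plin5 and the Plin2 array was -1.57 (2.96-fold), the largest among the members. Timp2, the inhibitor that also takes part in Mmp2 activation, read 11.12, 11.68 and 11.32, with differences of -0.21 for Plin5 and 0.35 for Plin2.

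Timp3 and Timp4 were not called in any comparison. Timp3, which is held in the matrix and also inhibits ADAMTS enzymes, read 10.13 on the Plin5, 10.05 on the Plin2 and 10.13 on the empty vector array. Timp4, an inhibitor known to be strongly expressed in heart and skeletal muscle, read 8.87, 9.03 and 9.09, with differences of -0.22 for Plin5 and -0.06 for Plin2. Over the 4 genes the median was -0.21 for Plin5 and 0.15 for Plin2. Of them 1 was called higher for Plin2, where 8.84% of all genes were.

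The promoter of Timp1 is shown because it was the inhibitor with the largest difference; it lies at chrX:3771073-3771372 on the minus strand, 250 bases before to 50 bases after the start site, and capitals mark the ETS motif AGGAAG, searched on both strands.
Timp1: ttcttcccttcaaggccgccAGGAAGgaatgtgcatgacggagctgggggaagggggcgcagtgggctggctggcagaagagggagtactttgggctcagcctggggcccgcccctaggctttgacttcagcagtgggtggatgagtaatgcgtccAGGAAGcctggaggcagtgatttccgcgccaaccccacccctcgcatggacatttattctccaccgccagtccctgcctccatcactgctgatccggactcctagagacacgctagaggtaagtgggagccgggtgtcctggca
The ETS motif began at -230 and at -94, and TGANTCA was not in this window. Only these exact letters were searched, so AP-1 sites with other letters would be missed. Of the 44 members, 33 were in the promoter table; 12 of these held the ETS motif (36.4%, against 34.5% of all promoters) and 7 held TGANTCA (21.2%, against 7.33%), all 7 in the chromosome 8 row. Of the 10 genes called higher on the Plin2 array, 5 were in the table: Mmp12 alone held TGANTCA, and Timp1, Adamts4 and Loxl1 held the ETS motif.

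Of the lysyl oxidases, which all passed the filter, Lox and Loxl1 were called higher on the Plin2 array, where 8.84% of all genes were. Lox, the enzyme that cross-links fibrillar collagen, read 10.06 on the Plin5, 11.01 on the Plin2 and 10.24 on the empty vector array. It was higher by 0.77 (1.71-fold) for Plin2 and at -0.18 for Plin5. Loxl1, which is needed for elastic fibres, read 9.81, 10.74 and 9.89, higher by 0.86 (1.81-fold) for Plin2 and at -0.07 for Plin5. In both genes the Plin5 value lay closer to the empty vector than the Plin2 value did.

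The other lysyl oxidases were not called against the empty vector. Loxl2, which acts on basement membrane collagen, read 9.39 on the Plin5, 9.76 on the Plin2 and 9.69 on the empty vector array. Its Plin5 difference of -0.30 was the lowest of all 33 members in that comparison, while its Plin2 difference was 0.07. Loxl3 read 7.35, 7.82 and 7.59 on those arrays, with differences of -0.24 for Plin5 and 0.23 for Plin2, and Loxl4 (7.28) was exactly equal on all 3. Over the 5 genes the median was -0.18 for Plin5 and 0.23 for Plin2.

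The other genes of matrix breakdown were counted from lists drawn up apart from the members. Each count for the Plin2 array stands against 8.84% of all genes higher and 5.8% lower. Each count for the Plin5 array stands against 0.221% higher and 1.42% lower. In the plasminogen system, which activates several metalloproteinases, 1 of 6 genes past the filter was higher by 1.5-fold on the Plin2 array and none lower (median 0.19): the urokinase receptor Plaur read 8.37 on the Plin5, 8.95 on the Plin2 and 8.29 on the empty vector array, a Plin2 difference of 0.66 that was 0.58 and no longer called after median-centring. Urokinase itself, Plau, read 8.77, 9.61 and 9.24, with differences of -0.47 for Plin5 and 0.37 for Plin2, and the tissue activator Plat had a Plin2 difference of 0.38. On the Plin5 array none of the 6 was called (median -0.02, and 0.02 after median-centring, where that of all genes was 0.04). Of the ADAM sheddases 3 were measured and none was called; Adam15 (0.50), Adam17 (0.37) and Adam9 (-0.22) had Plin2 differences short of the threshold.

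Among 10 other matrix proteases and modulators past the filter, 3 were higher on the Plin2 array and none lower (median 0.33), while 1 was lower on the Plin5 array and none higher (median -0.08). The lysosomal cathepsin Ctss, an elastin-cutting enzyme of macrophages and other antigen-presenting cells, was in both counts: it read 9.62 on the Plin5, 11.28 on the Plin2 and 10.21 on the empty vector array, differences of -0.59 and 1.07. Its Plin5 difference fell short of the threshold after median-centring (-0.55) and quantile normalization (-0.56). The heparan sulfate-cutting heparanase Hpse had a Plin2 difference of 0.86, and Bmp1, the procollagen C-proteinase that also activates Lox, one of 0.59, which fell short of the threshold after median-centring (0.50). Cathepsin K (Ctsk) was at 0.36, and the membrane inhibitor Reck was exactly equal on all 3 arrays (7.23).

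Of the substrates, collagens and elastic fibre genes had 1 of 11 higher on the Plin2 array and none lower (median 0.15), and none called on the Plin5 array (median -0.09). The called gene was Efemp2 (0.64), which encodes fibulin-4 and brings Lox to elastic fibres. The share of 1 in 11 is near the background, and after median-centring Efemp2 (0.55) was not called either. Fibrillin-2 (Fbn2) was at 0.50, Col5a2 at 0.37 and Col1a2 at 0.22, and elastin (Eln) was exactly equal on all 3 arrays (8.58). Proteoglycan and glycoprotein substrates had 3 of 10 higher and none lower on the Plin2 array (median 0.27): Thbs1 (1.07), the proteoglycan versican (Vcan, 0.99) and fibronectin (Fn1, 0.64; 0.55 and not called after median-centring). On the Plin5 array 1 of those 10 was lower, the tendon proteoglycan Fmod (-1.17; -0.48 on the Plin2 array), and Comp was at -0.49.

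Versican, a substrate of Adamts4 and Adamts15, read 9.29 on the Plin5, 10.24 on the Plin2 and 9.24 on the empty vector array. As in these proteases, the Plin2 value was high and the other values lay close together. Adamts1, Adamts5 and Adamts9, of the same proteoglycan-cutting group, did not share this, with Plin2 differences of -0.38, -0.09 and 0.00. Aggrecan (Acan, 5.93), the other proteoglycan named for these enzymes, was exactly equal on all 3 arrays.

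**Figure D5:**
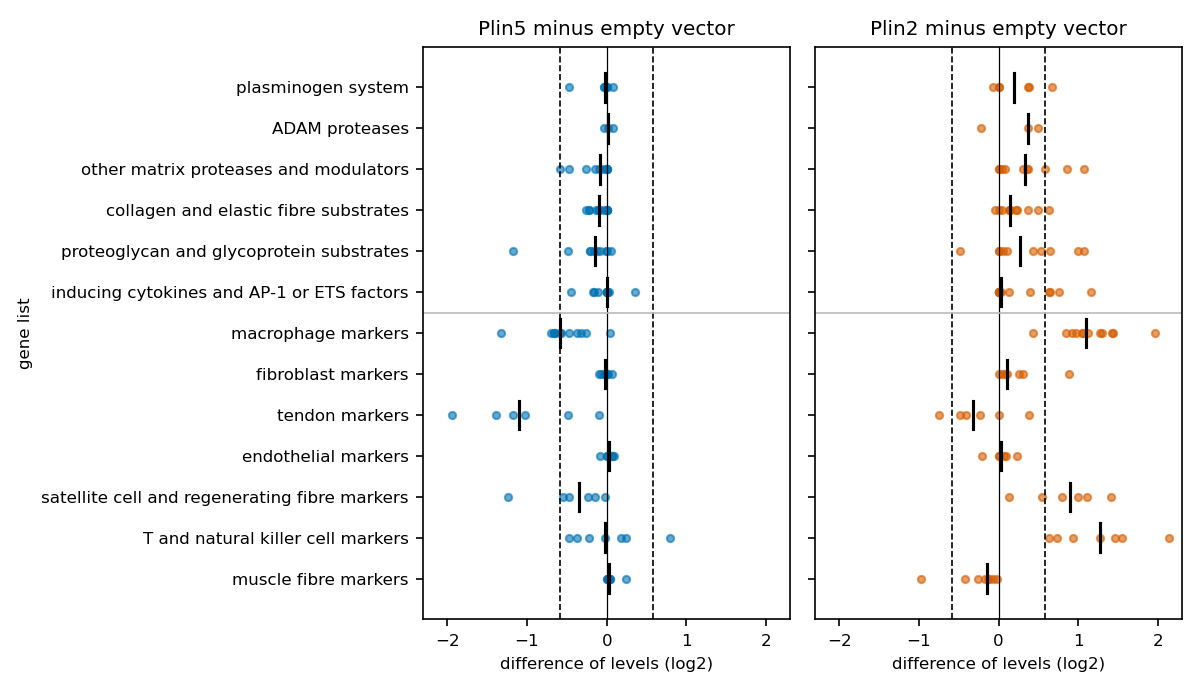
Difference from the empty vector (x axis, log2) for the genes of 6 lists of related matrix genes and inducers and 7 lists of cell type markers (rows), Plin5 on the left and Plin2 on the right. Each point is a gene past the dim filter, the black bar is the list's median and dashed lines mark 1.5-fold; macrophage markers have medians of -0.58 for Plin5 and 1.09 for Plin2. The neutrophil list, with 1 gene past the filter, is not drawn.

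Markers of some cell types that make these proteins differed between the same arrays, whereas most fibroblast and endothelial markers differed little. In whole muscle, fewer cells of a type and less RNA per cell cannot be told apart. Each marker count here and below stands against 8.84% of all genes higher and 5.8% lower on the Plin2 array. On the Plin5 array these shares were 0.221% and 1.42%. Of 12 macrophage markers, all measured, 11 were higher by 1.5-fold on the Plin2 array, and 6 were lower on the Plin5 array (5 after median-centring, without Gpnmb). The sum of their linear signals was 7669 on the Plin5, 24332 on the Plin2 and 10926 on the empty vector array. Of the 7 neutrophil markers, S100a8, S100a9, Mpo, Elane and Ngp were dim and exactly equal on all arrays. Csf3r, the granulocyte colony-stimulating factor receptor, read 7.40 on the Plin5, 9.40 on the Plin2 and 7.75 on the empty vector array.

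Fibroblast markers, of which 7 of 8 were measured, had 1 gene called on the Plin2 array (Fbln1, 0.88) and none on the Plin5 array; their summed signal was 9890 on the Plin5, 10864 on the Plin2 and 10036 on the empty vector array. Markers of satellite cells and regenerating fibres summed to 3692, 8305 and 4545 on those arrays, with 4 of 6 higher for Plin2 and 1 lower for Plin5. Tendon markers summed to 1431, 2572 and 3184, with 4 of 6 lower for Plin5 and 1 lower for Plin2. Markers of T and natural killer cells summed to 2644, 5978 and 2284, with 7 of 7 higher for Plin2 (6 after median-centring) and 1 higher for Plin5. Endothelial markers (5229, 5180 and 5111) had no gene called, and muscle fibre markers summed to 97468, 83218 and 95038, with 1 of 8 lower for Plin2.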

How the data were processed

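The values are log2 expression levels that the authors deposited after RMA, per the submitters' processing notes (no version); RMA corrects background, normalizes arrays to a common distribution and summarises probes by median polish. The log base was taken from the range of the values. Their genome build is not given in the sources used here. Normalizing to a common distribution hides changes in total RNA, and median polish can give equal values on all 3 arrays.

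Of 29214 probe sets, 15310 had 1 gene symbol, 323 had several and 13581 had none listed, and only the first kind was used. The probe set with the highest mean was kept per gene. All 44 members had an Entrez number in RefSeq (GRCr8), and 0 symbols differed. Array medians over all 29214 probe sets were 6.37 (Plin5), 6.40 (Plin2) and 6.38 (empty vector). Median-centring used the medians of the 14506 genes instead, whose gaps between arrays were different. Genes under the 25th percentile were left out of counts.

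Differences were called at 1.5-fold, with no test, since each group had 1 array. Values on all arrays were given for called members and for Timp and Lox genes. In each list, up to 4 genes with the largest differences were named, many by their Plin2 difference alone. Others were named after their values were seen. TGANTCA and AGGAAG were named before the promoters were read, and TATAAA and the window from -100 to -21 after. Members, lists and motifs were chosen with earlier results of these data known. The counting step was also run on shuffled differences with added shifts. That run held no repeat arrays, so it says nothing about the calls given here. Promoter sequences are RefSeq's (GRCr8). Calculations used pandas 2.3.3 and numpy 2.4.6 under Python 3.11.15, with statsmodels 0.14.6 for loess, scipy 1.17.1 for intervals and matplotlib 3.10.9 for plots.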

Additional observations from a re-analysis of the deposited data

How the results depend on the processing

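Counts and medians of the members were recomputed with other fold thresholds, dim filters, centring, quantile normalization, a loess correction and the mean of a gene's probe sets. A dim level from only the compared arrays and the counts and medians without Mmp12 were added after seeing the data. At 1.2-fold, 2 of 33 members were higher and 2 lower on the Plin5 array against the empty vector, where 1.5-fold gave 0 and 0. Over all genes 1.52% were then higher and 5.71% lower, so the lower count is near the background. The 2 higher were Adamtsl5 and Mmp12, and Mmp12 was under the dim level on both of these arrays. At 2-fold, 2 were higher and 0 lower on the Plin2 array, against 10 and 2 at 1.5-fold, and 0 were higher and 2 lower between Plin5 and Plin2, against 2 and 12. Over all genes 2.5% were higher and 1.31% lower at 2-fold on the Plin2 array. Between Plin5 and Plin2 these shares were 1.98% and 5.17%, so the lower count there is near the background. In both comparisons the genes called at 2-fold were Timp1 and Mmp12, and Mmp12 passed the filter through its Plin2 value. Without Mmp12, Timp1 alone was called at 2-fold. With the dim filter at the median, which left 19 members, 5 were higher on the Plin2 array, against 10.3% of all genes. Between Plin5 and Plin2, 6 were lower, against 13.2% of all genes. Fewer genes were then counted. Median-centring moved the Plin5 median against the empty vector to 0.024, where that of all genes became 0.039. It shifted the median of all genes between Plin5 and Plin2 to 0.12. It also turned the larger side of the calls over all genes, from 962 higher and 631 lower to 775 higher and 819 lower for Plin2 against the empty vector, and from 782 and 1225 to 1109 and 979 for Plin5 against Plin2; the members then gave 8 higher and 2 lower, and 2 higher and 8 lower. Of 240 recomputed differences of 20 named members, 10 crossed the 1.5-fold line and 0 calls changed sign. The 60 from the mean of probe sets could not change, since each named member had 1 probe set. Many of the others had no call to lose, so 240 is not a measure of stability. Those that crossed were lost calls of Adamts14, Mmp9, Mmp2 and Mmp23 and a gained call of Timp2. No paired analysis was possible because each group had 1 array. The single arrays and signals near the dim level limit every difference.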

Other observations

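Known inducers of matrix metalloproteinases were measured on the same arrays. Of 13 inducing cytokines and AP-1 or ETS factors past the dim filter, 4 were higher by 1.5-fold on the Plin2 array against the empty vector and none lower, where 8.84% of all genes were higher. After median-centring 2 of 13 were higher, against 7.12% of all genes. The median of 0.03 then became -0.06, where that of all genes became -0.08. None was called on the Plin5 array, where the median was 0.00. The cytokine gene Il1b read 7.64 on the Plin5, 8.44 on the Plin2 and 7.29 on the empty vector array, so that it was higher by 1.15 for Plin2 and by 0.35 for Plin5. Tgfb1, a growth factor known to raise matrix synthesis, read 9.10, 10.31 and 9.55 on those arrays, higher by 0.76 for Plin2. The AP-1 subunits Fosl2 (0.64) and Junb (0.63) were the other called genes, and both fell short of the threshold after median-centring (0.56 and 0.54), whereas Fos (7.54), Jund (7.67) and the cytokine Tnf (6.35) were exactly equal on all 3 arrays and Jun read 9.75 on the Plin5, 9.86 on the Plin2 and 9.86 on the empty vector array.

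Adamts3 was the 1 member with a second probe set. It was exactly equal on all 3 arrays on both, at 5.81 and 5.67.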
